A study of Epimedium pubescens with 27 samples.

Results

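The genes described here are the chlorophyll a-b binding antenna genes of Epimedium pubescens, chosen as every gene whose deposited description contains the words "Chlorophyll a-b binding" in any letter case. The rule found 61 genes among the 58645 genes of the table, and it used no measured value. RNA was sequenced from leaves of seedlings fed low nitrate (LN, 0 mM NO3-), moderate nitrate (MN, 7.5 mM) or high nitrate (HN, 22.5 mM). Leaves were taken at 24 (S1), 36 (S2) and 48 (S3) days after the treatment began, with 3 replicates (A, B, C) in each of the 9 groups and 27 libraries in all. The seedlings were 1 year old, came from a commercial base and grew in pots of sand and perlite. The LN solution held calcium chloride and potassium sulphate in place of the nitrate salts, and the HN solution held sodium nitrate on top of those of MN, so nitrate and the accompanying ions cannot be told apart. The leaf position and the hour at which leaves were taken for RNA were not given in the sources used here. By the last stage older leaves were chlorotic at LN and necrotic at HN according to the study, so changes in RNA per cell and in the share of living mesophyll cells cannot be told apart in these bulk samples.

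Light-harvesting proteins bind most of the chlorophyll of a leaf and pass the absorbed energy to the reaction centres. The Lhca proteins form LHCI around photosystem I, Lhcb1, Lhcb2 and Lhcb3 form the trimers of LHCII, and single copies of the minor proteins Lhcb4 (CP29) and Lhcb6 (CP24) link LHCII to photosystem II. PsbS and the early light-induced proteins (ELIP) belong to the same protein superfamily but serve photoprotection. PsbS senses lumen acidity and triggers the release of excess energy as heat, and ELIPs accumulate under light stress in Arabidopsis and pea.

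Of the 61 genes, 49 were LHCII genes, 6 were LHCI genes (Lhca1 to Lhca6), 3 were minor photosystem II genes (Lhcb4, Lhcb6 and the rare Lhcb7) and 3 were LHC-like (PsbS and 2 ELIP genes). The LHCII genes are named here by the number of their best Swiss-Prot match. There were 25 genes matching tobacco CAB40, 10 matching CAB21, 7 matching CAB36, 3 matching CAB16, and 1 each matching pea AB80, petunia CAB25, tomato CAB1B and Lhcb3. In the annotation 34 of the 61 genes lay on chromosome 2, mostly in runs of neighbouring copies. A run of 4 CAB40 genes (chromosome 2, 140463796 to 140879974) held a summed mean of 3499 FPKM (fragments scaled by gene length and by library depth). A run of 8 CAB21 genes (chromosome 2, 438374217 to 438552695) summed to only 16.5 FPKM, whereas a run of 4 CAB21 and CAB40 genes on chromosome 4 (347878264 to 347953638) summed to 695 FPKM. How alike the sequences of these neighbours are was not compared. If they are near-identical, reads may have been shared among them or lost. The split of level between single LHCII copies is therefore uncertain, while sums are less affected by a division among copies. Lost reads would lower the LHCII sums themselves.

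With that limit on the LHCII share, the 6 LHCI genes together took 50.0% of the mean antenna FPKM, the 49 LHCII genes 28.4%, the minor photosystem II genes 14.5% and the LHC-like genes 7.10%. The highest single means over the 27 libraries were those of Lhca4 (Ebr06G030310, 7607 FPKM), Lhca1 (Ebr06G046340, 5746 FPKM), Lhca2 (Ebr03G062770, 5494 FPKM), Lhca3 (Ebr03G000630, 5300 FPKM) and Lhcb4 (Ebr03G035460, 4644 FPKM). PsbS (Ebr04G026740) had 3078 FPKM and Lhcb6 (Ebr05G040400) 2415 FPKM. Among the LHCII genes the highest were the CAB36 gene Ebr06G056750 (1721 FPKM) and the CAB40 gene Ebr02G017730 (1393 FPKM), while the most expressed genes of other LHCII classes were Lhcb3 (Ebr03G020380, 621 FPKM), the CAB21 gene Ebr04G044140 (304 FPKM) and the CAB16 gene Ebr02G052110 (214 FPKM). Lhca6 (Ebr05G013720, 144 FPKM), Lhca5 (Ebr04G050410, 52.1 FPKM) and Lhcb7 (Ebr04G064290, 27.5 FPKM) were expressed far below their relatives. The AB80 gene, a transcript the authors added to the annotation, averaged 0.541 FPKM. At the low end, the CAB1B gene Ebr02G052080 had no count in any library, and the CAB25 gene Ebr03G054500 had 2 counts in all. A filter on low counts kept 28593 genes for testing, among them 53 of the 61 antenna genes. The 8 genes left out, 7 of them on chromosome 2, had at most 8 counts in any library.

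Total counts per library ran from 13609959 to 18482851, and the antenna genes took between 2.89% and 6.88% of them. Within groups, some libraries stood apart before any comparison. Replicate C of LN S1, replicate C of LN S3, replicate B of HN S1 and replicate C of HN S3 held far less antenna transcript than the other replicates of their groups. The summed antenna level was 68352, 71064 and 25080 FPKM in replicates A, B and C of LN S3, a 2.83-fold spread, and the LHCII genes alone spread 5.96-fold there. In MN S2 and MN S3 the spread of the sum was 1.07-fold and 1.09-fold. Within-group pairs all differed by more than counting noise. Root markers (3 Casparian strip genes) summed to at most 0.7 FPKM in any library, and the carbonic anhydrase gene Ebr02G048160 averaged 7170 FPKM, but the better expressed annotated Rubisco small subunit gene, Ebr02G041860, had a mean of only 49.9 FPKM. Cyclin genes of dividing cells summed to 129 to 228 FPKM.

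By group mean, the antenna genes stood highest in MN leaves at S2. Their summed level was 69735, 74411 and 71871 FPKM in the 3 MN S2 libraries. The same sum averaged 52306 ± 19569 (LN), 44249 ± 7435 (MN) and 55135 ± 17165 (HN) at S1. At S2 the averages were 41741 ± 8500 (LN), 72006 ± 2341 (MN) and 35872 ± 7845 (HN). At S3 they were 54832 ± 25802 (LN), 40390 ± 1781 (MN) and 41972 ± 11080 FPKM (HN; SD, n = 3 each). Thus the LN S2 libraries (33467 to 50450 FPKM) and the HN S2 libraries (27144 to 42337 FPKM) all lay below the 3 MN S2 libraries. Across stages single libraries overlapped, since replicate B of LN S3 (71064 FPKM) lay inside the MN S2 range. Its antenna share of counts (6.88%) was above those of MN S2 (6.42% to 6.78%). Of the 53 tested genes, 35 had their highest group mean in MN S2, including 29 of 41 LHCII genes and 4 of 6 LHCI genes, and 17 had their lowest in HN S2. The matching shares over all genes are not given here.

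**Figure D1:**
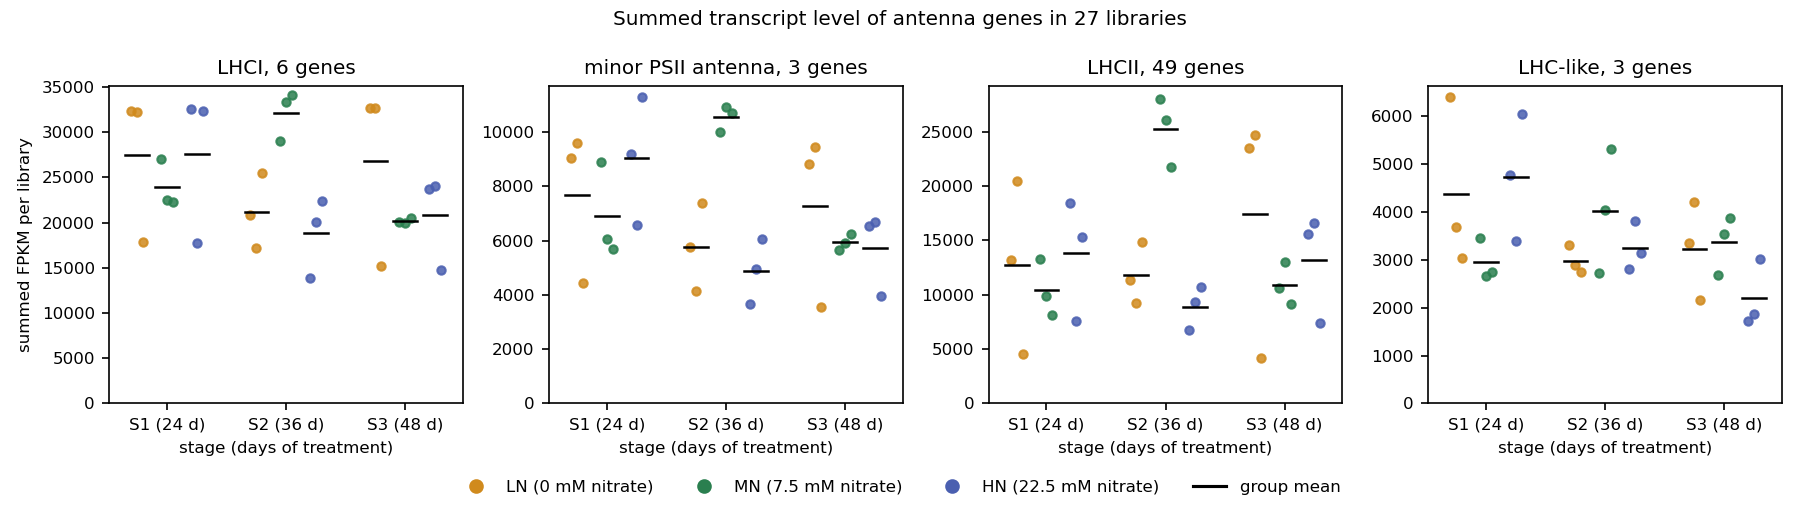
Summed FPKM of LHCI (6 genes), minor photosystem II (3), LHCII (49) and LHC-like genes (3), one point per library by stage and nitrate level, with bars at the group means. LHCII sums in the 3 MN S2 libraries (21738 to 28003 FPKM) lie above those of every LN S2 (up to 14862 FPKM) and HN S2 library (up to 10700 FPKM), while 1 low library widens LN S1 and LN S3.

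LHCII genes carried the largest part of the S2 difference. Their sum was 53.3% lower in LN than in MN leaves at S2, at 11818 ± 2857 FPKM in LN and 25283 ± 3213 FPKM in MN. It was 64.8% lower in HN leaves, at 8907 ± 2012 FPKM. The LHCI sum was 34.2% lower in LN and 41.5% lower in HN than in MN, and the minor photosystem II sum was 45.2% and 53.6% lower. The ratio of summed LHCII to summed LHCI FPKM was 0.547, 0.534 and 0.584 in LN S2 and 0.483, 0.462 and 0.477 in HN S2, against 0.966, 0.783 and 0.637 in MN S2. The ratios in both other groups therefore lay below all 3 MN values. Across the 27 libraries the SD of log2 CPM had a median of 1.39 over the LHCII genes (0.58 to 2.26), 0.47 over the LHCI genes (0.41 to 0.49), 0.45 over the minor genes and 1.32 over the LHC-like genes. The LHCII median includes barely expressed copies, such as the CAB21 gene Ebr02G051750 (mean 2.94 FPKM, SD 2.21). The most expressed LHCII genes, Ebr06G056750 and Ebr02G017730, had SDs of 0.86 and 0.72, while Lhcb3 had 1.34. The part of low counts in the LHCII spread was not tested. These summaries carry no test, since genes of a family are not replicates.

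In LN against MN leaves at S2, the comparison for nitrogen shortage, 47 of 53 genes had a lower estimate in LN, with a median log2 fold change of -1.07 (all genes 0.01). edgeR called 0 of them at an adjusted p below 0.05 with at least a 2-fold difference, where 0.143% of all genes were called. At an unadjusted p under 0.05, 15 genes were lower and 2 higher, against 4.69% lower and 7.54% higher over all genes. DESeq2, run without the filter on low counts, gave a p for 60 antenna genes. It called 3 (2 lower and 1 higher), against 2.52% of the 28238 genes with an adjusted p. The LHCII median was -1.56 (38 of 41 negative, 13 at unadjusted p under 0.05), the LHCI median -0.54 (5 of 6 negative, 0), and the minor median -0.78 (3 of 3 negative, 2). In 25 genes every LN library lay below every MN library in log2 CPM, as in 9.32% of all genes. Without replicate B of LN S2 the number lower at unadjusted p under 0.05 was 3, and it was 8 without replicate B of MN S2, 7 without replicate A of MN S2 and 9 without replicate A of LN S2. With 7 replicate pairs summed that were closer to each other than any libraries of different groups, it was 3.

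For HN against MN leaves at S2, the comparison for nitrogen excess, the estimates were lower in HN for 51 of 53 genes, with a median log2 fold change of -1.64 (all genes 0.06). This comparison uses the same 3 MN S2 libraries as the one above, so the 2 are not independent. Again edgeR called 0 of the 53, where 0.234% of all genes were called. Lower at an unadjusted p under 0.05 were 29 genes and higher 1, against 6.39% lower and 8.63% higher over all genes. DESeq2 called 12, all lower, against 3.88%. By complex the medians were -2.01 for LHCII (40 of 41 negative, 25 at unadjusted p under 0.05), -0.67 for LHCI (6 of 6, 2), -0.85 for the minor genes (3 of 3, 2) and -0.34 for the LHC-like genes. Among LHCII classes the medians were -3.53 for the 8 tested CAB21 genes, -2.40 for the 3 CAB16 genes, -2.02 for the 21 CAB40 genes and -1.32 for the 7 CAB36 genes, and every one of these genes had a negative estimate. The CAB21 median rests mostly on barely expressed copies. All but Ebr04G044120 (-3.42) and Ebr04G044140 (-0.63) came from the chromosome 2 run, with means of 0.33 to 6.11 FPKM. In 34 genes the HN and MN libraries did not overlap with HN lower, as in 10.4% of all genes. Without replicate A of HN S2 the count lower at unadjusted p under 0.05 was 12, and without replicate B of HN S2 it was 18. With the close replicate pairs summed it was 13.

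**Figure D2:**
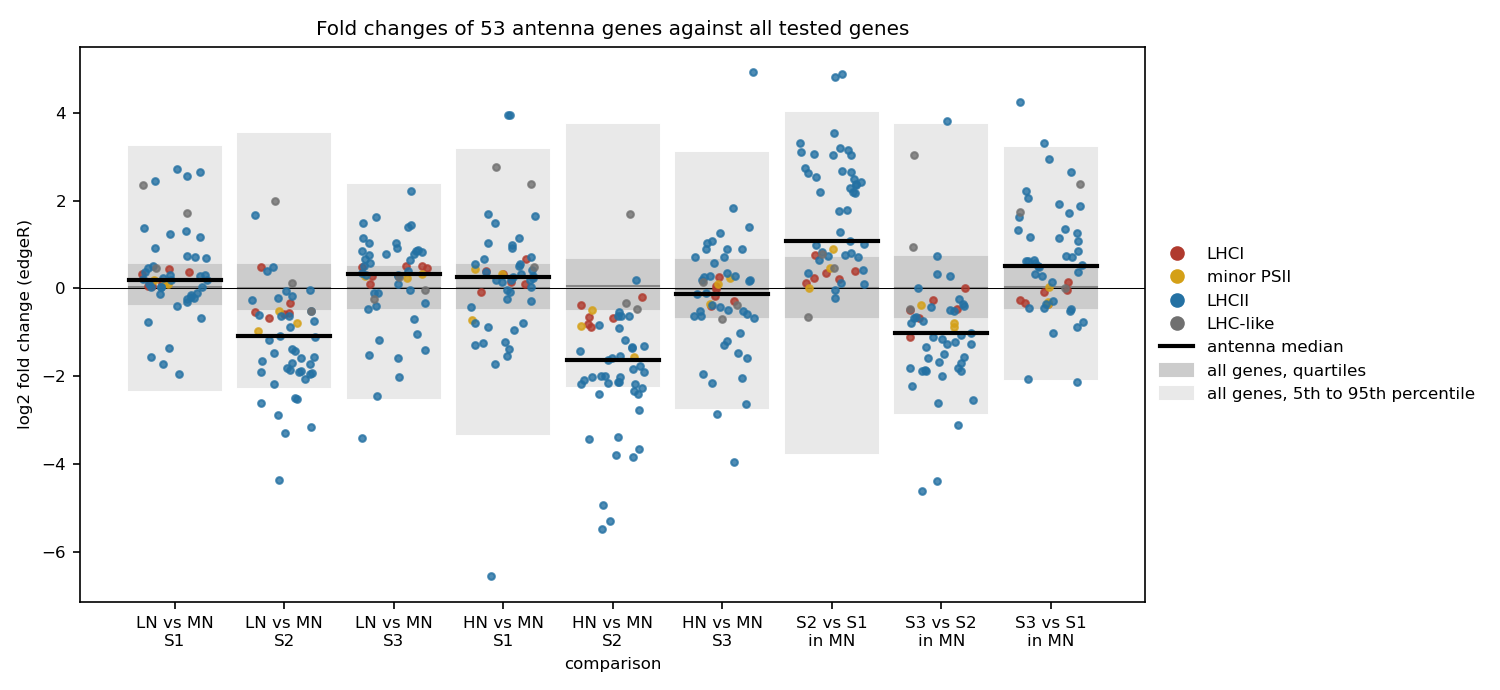
Log2 fold change of the 53 tested antenna genes, grouped by complex, in 9 comparisons, with the quartiles and the 5 to 95 percentile range of all 28593 genes behind them. The LHCII genes sit lowest for LN vs MN S2 (median -1.56) and HN vs MN S2 (median -2.01), and highest for S2 vs S1 in MN (median 2.21).

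Lhca4, which pairs with Lhca1 in LHCI and carries the chlorophylls that absorb farthest to the red, had 6464, 5619 and 6786 FPKM in LN S2, 9677, 9807 and 10972 FPKM in MN S2, and 4139, 5947 and 6389 FPKM in HN S2. Neither LN nor HN overlapped with MN. The edgeR log2 fold change was -0.67 (SE 0.34, adjusted p = 0.427) for LN and -0.87 (SE 0.34, adjusted p = 0.247) for HN. Lhca1 had 5221, 4026 and 5310 FPKM in LN S2, 6251, 7625 and 7802 FPKM in MN S2, and 3208, 4879 and 5254 FPKM in HN S2, also without overlap between MN and the others. For Lhca1 the log2 fold changes were -0.56 (LN, adjusted p = 0.595) and -0.68 (HN, adjusted p = 0.414) by edgeR. Lhca2, partner of Lhca3, and Lhca3 gave -0.57 and -0.53 for LN, and -0.81 and -0.65 for HN. Lhca5, a scarce LHCI protein that in Arabidopsis helps attach NDH complexes to photosystem I, was the exception among the 6, with 0.49 for LN and -0.20 for HN. Lhca6, with the same role there, gave -0.34 and -0.37.

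Lhcb4, which connects LHCII to the core, had 3396, 2777 and 4891 FPKM in LN S2, 6250, 6272 and 6736 FPKM in MN S2, and 2608, 3647 and 4266 FPKM in HN S2. Its MN values did not overlap with the others, and edgeR gave -0.78 (SE 0.35, adjusted p = 0.370) for LN and -0.85 (SE 0.35, adjusted p = 0.263) for HN. Lhcb6 (chromosome 5, 303394912 to 303396078), which with Lhcb4 holds the outer trimers, showed a larger gap. It had 2351, 1361 and 2478 FPKM in LN S2, 3731, 4611 and 3923 FPKM in MN S2, and 1050, 1267 and 1780 FPKM in HN S2. edgeR estimated -0.97 (SE 0.43, adjusted p = 0.373) for LN and -1.56 (SE 0.44, adjusted p = 0.120) for HN on the log2 scale, with DESeq2 giving an adjusted p of 0.0115 for HN. Lhcb7, a gene of low level, gave -0.52 and -0.49.

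The CAB21 gene Ebr04G044120 (chromosome 4, 347887657 to 347888448), a subunit of the LHCII trimers, had 213, 128 and 135 FPKM in LN S2, 623, 676 and 492 FPKM in MN S2, and 44.8, 51.9 and 68.3 FPKM in HN S2. The 3 groups did not overlap at all. edgeR gave -1.89 (SE 0.84, adjusted p = 0.370) for LN and -3.42 (SE 0.89, adjusted p = 0.0937) for HN. The CAB40 gene Ebr02G017740 (chromosome 2, 140879168 to 140879974) had 126, 106 and 160 FPKM in LN S2, 327, 898 and 1052 FPKM in MN S2, and 89.3, 111 and 268 FPKM in HN S2. Here too LN and HN lay below MN, by -2.52 (SE 0.70, adjusted p = 0.165) and -2.26 (SE 0.69, adjusted p = 0.149) with edgeR, and DESeq2 gave adjusted p-values of 0.00998 and 0.0193. The neighbouring CAB40 gene Ebr02G017730 did not follow: it had 1904, 1597 and 873 FPKM in LN S2, 3038, 719 and 854 FPKM in MN S2, and 966, 1160 and 850 FPKM in HN S2. Only MN replicate A was high, and without that library the estimates were 0.91 for LN and 0.35 for HN, against -0.07 and -0.62 with it.

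Single LHCII genes also had unlike values in LN and HN leaves. The CAB36 gene Ebr06G056750, the most expressed LHCII gene, had 884, 616 and 862 FPKM in LN S2, 1501, 3058 and 2516 FPKM in MN S2, and 949, 1437 and 2111 FPKM in HN S2. The LN libraries lay below all MN libraries (-1.56, SE 0.63, edgeR adjusted p = 0.331), while HN and MN overlapped (-0.63). The CAB21 gene Ebr04G044140 likewise stood low in LN, with 123, 27.7 and 17.01 FPKM, against 226, 757 and 670 FPKM in MN S2, and HN gave 335, 389 and 329 FPKM, inside the MN range. For the CAB16 gene Ebr02G052110 both groups lay lower: 196, 104 and 291 FPKM in LN S2, 755, 938 and 567 FPKM in MN S2, and 121, 146 and 156 FPKM in HN S2. Lhcb3, the trimer subunit special to land plants, had 832, 505 and 1074 FPKM in LN S2, 1891, 2408 and 1194 FPKM in MN S2, and 550, 620 and 571 FPKM in HN S2, with edgeR estimates of -1.17 (adjusted p = 0.588) and -1.64 (adjusted p = 0.336).

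The 2 genes that were higher in LN at an unadjusted p under 0.05 were a CAB36 gene and an ELIP gene. The CAB36 gene Ebr0G005020 (on Contig01618, 5695 to 7696) had 275, 316 and 160 FPKM in LN S2, 98.8, 94.0 and 47.2 FPKM in MN S2, and 21.9, 30.7 and 39.8 FPKM in HN S2. It stood highest in LN and lowest in HN with no overlap, by 1.66 (SE 0.51, adjusted p = 0.219) and -1.35 (SE 0.50, adjusted p = 0.224) with edgeR. The ELIP gene Ebr02G020530 (chromosome 2, 164566452 to 164567371) had 171, 153 and 256 FPKM in LN S2, 19.0, 68.7 and 61.7 FPKM in MN S2, and 280, 63.7 and 129 FPKM in HN S2. LN did not overlap with MN, but HN did, and edgeR gave 1.98 (SE 0.69, adjusted p = 0.280) and 1.68 (SE 0.69, adjusted p = 0.263). The other ELIP gene, Ebr02G021330, did not share this difference, at 0.13 (SE 0.97) for LN and -0.47 for HN. PsbS overlapped in both, at -0.51 for LN and -0.34 for HN.

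**Figure D3:**
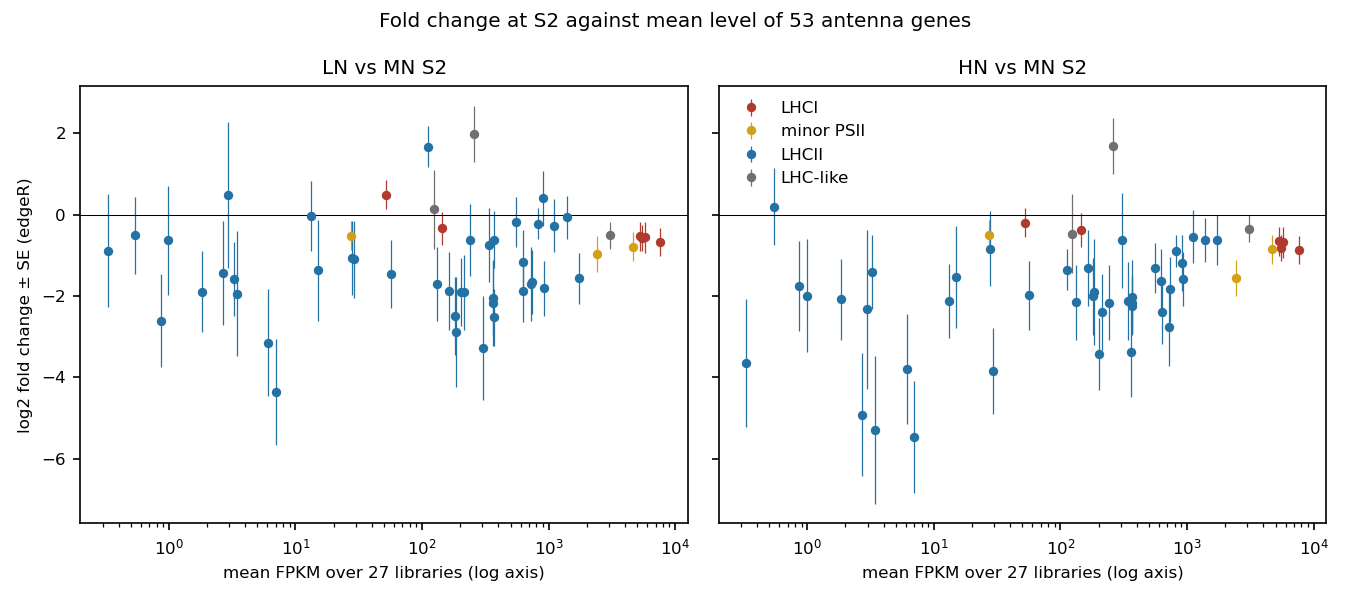
Log2 fold change (with SE bars) of the 53 tested genes against their mean FPKM on a log axis, for LN vs MN S2 and HN vs MN S2, coloured by complex. The abundant LHCI genes cluster between -0.87 and -0.53, and the lowest estimate is -5.46 in HN for the CAB16 gene Ebr02G052060, an LHCII gene of lower level. Outside LHCII, Lhcb6 (-0.97 in LN and -1.56 in HN) and the ELIP gene Ebr02G020530 (1.98 and 1.68) also lie beyond that LHCI range.

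In MN leaves most antenna genes stood higher at S2 than at S1, and lower at S3 than at S2. Both comparisons use the MN S2 libraries that also enter the LN and HN comparisons at S2. They are therefore not independent of those comparisons or of each other. Between S2 and S1 in MN, 50 of 53 genes had a positive estimate, with a median log2 fold change of 1.09 (all genes 0.00). edgeR called 3 genes, all higher, where 2.94% of all genes were called. At an unadjusted p under 0.05, 19 antenna genes were higher, against 11.9% of all genes, and 0 lower. DESeq2 called 14, against 10.5%. The 19 became 12 without replicate B or C of MN S1 and 9 with the close replicate pairs summed, and without replicate C of LN S3 edgeR called 7. The LHCII median was 2.21 (39 of 41 positive, 17 at unadjusted p under 0.05), against 0.30 for LHCI (6 of 6 positive) and 0.47 for the minor genes. In 29 genes all MN S2 libraries exceeded all MN S1 libraries, as in 13.9% of all genes. The summed LHCII level was 2.42 times that of S1, and the summed LHCI level 1.34 times.

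Lhcb3 (chromosome 3, 159832613 to 159833985) rose: it had 1891, 2408 and 1194 FPKM in MN S2, against 214, 203 and 184 FPKM in MN S1. edgeR estimated a log2 difference of 3.19 (SE 0.84, adjusted p = 0.0436). It was called in 13 of 27 fits with 1 library left out, with adjusted p between 0.0259 and 0.159 and the highest without MN S2 replicate B. The CAB21 gene Ebr02G051730 (chromosome 2, 438403904 to 438404695) rose by 4.80 on the log2 scale (SE 1.303, edgeR adjusted p = 0.0468) at a very low level, with 5.76, 2.76 and 2.16 FPKM in MN S2 against 0.199, 0.165 and 0.0 FPKM in MN S1. The CAB16 gene Ebr02G052060 (chromosome 2, 440464253 to 440477454) rose by 4.87 on the log2 scale (SE 1.35, edgeR adjusted p = 0.0494), with 53.1, 64.6 and 8.42 FPKM in MN S2 against 3.35, 0.374 and 0.642 FPKM in MN S1. The groups did not overlap in any of the 3. The Ebr02G051730 call held in 6 of 27 fits (highest adjusted p 0.146, without MN S2 replicate B), and the Ebr02G052060 call in 5 of 27 (highest 0.174, without the same library). None of the 3 calls held with the close replicate pairs summed or with no filter on low counts, and in a fit limited to the compared groups Lhcb3 alone kept its call. Under a replicate block Ebr02G052060 lost it too. Ebr04G044120 had 623, 676 and 492 FPKM in MN S2 against 172, 63.3 and 53.1 FPKM in MN S1 (2.64, edgeR adjusted p = 0.0819).

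Between S3 and S2 in MN the direction turned, with negative estimates in 45 of 53 genes and a median of -1.02 (all genes 0.01). edgeR called 1 gene, which was higher, where 1.63% of all genes were called. There were 13 genes at an unadjusted p under 0.05 (21.6% of all genes), 12 of them lower (9.6%) and 1 higher. DESeq2 called 6 (5 lower), against 8.16%. Without 1 library the 12 ranged between 7 (replicate A or B of MN S2) and 18 (replicate C of LN S3), and it was 8 without replicate A, B or C of MN S3 and 7 with the close replicate pairs summed. LHCII genes had a median of -1.26 (36 of 41 negative, 10 at unadjusted p under 0.05), LHCI genes -0.48 and minor genes -0.78. In 27 genes every S3 library lay below every S2 library, as in 11.7% of all genes. Lhcb3 had 206, 568 and 155 FPKM in MN S3 (-2.55, edgeR adjusted p = 0.0942). Lhca3 had 3858, 4469 and 3020 FPKM in MN S3 against 6475, 9398 and 8718 FPKM in MN S2 (-1.10, SE 0.36, edgeR adjusted p = 0.0960).

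The called gene was the ELIP gene Ebr02G020530, which rose, with 120, 478 and 610 FPKM in MN S3 against 19.0, 68.7 and 61.7 FPKM in MN S2. edgeR estimated a log2 difference of 3.03 (SE 0.72, adjusted p = 0.0358). The groups did not overlap. The call held in 23 of 27 fits with 1 library left out and was lost without MN S2 replicate A (0.0646), B (0.154) or C (0.0966) or MN S3 replicate C (0.166). It was also lost in a fit of the compared groups only and with the close replicate pairs summed, with an adjusted p of up to 0.324 over all alternatives. For S3 vs S1 in MN, 35 of 53 estimates were positive with a median of 0.50 (0.20 without replicate B of MN S3, 0.67 without replicate A of MN S1), edgeR called 0 (0.049% of all genes), 6 genes passed an unadjusted p under 0.05 (10.9%), and DESeq2 called 2 (2.37%).

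**Figure D4:**
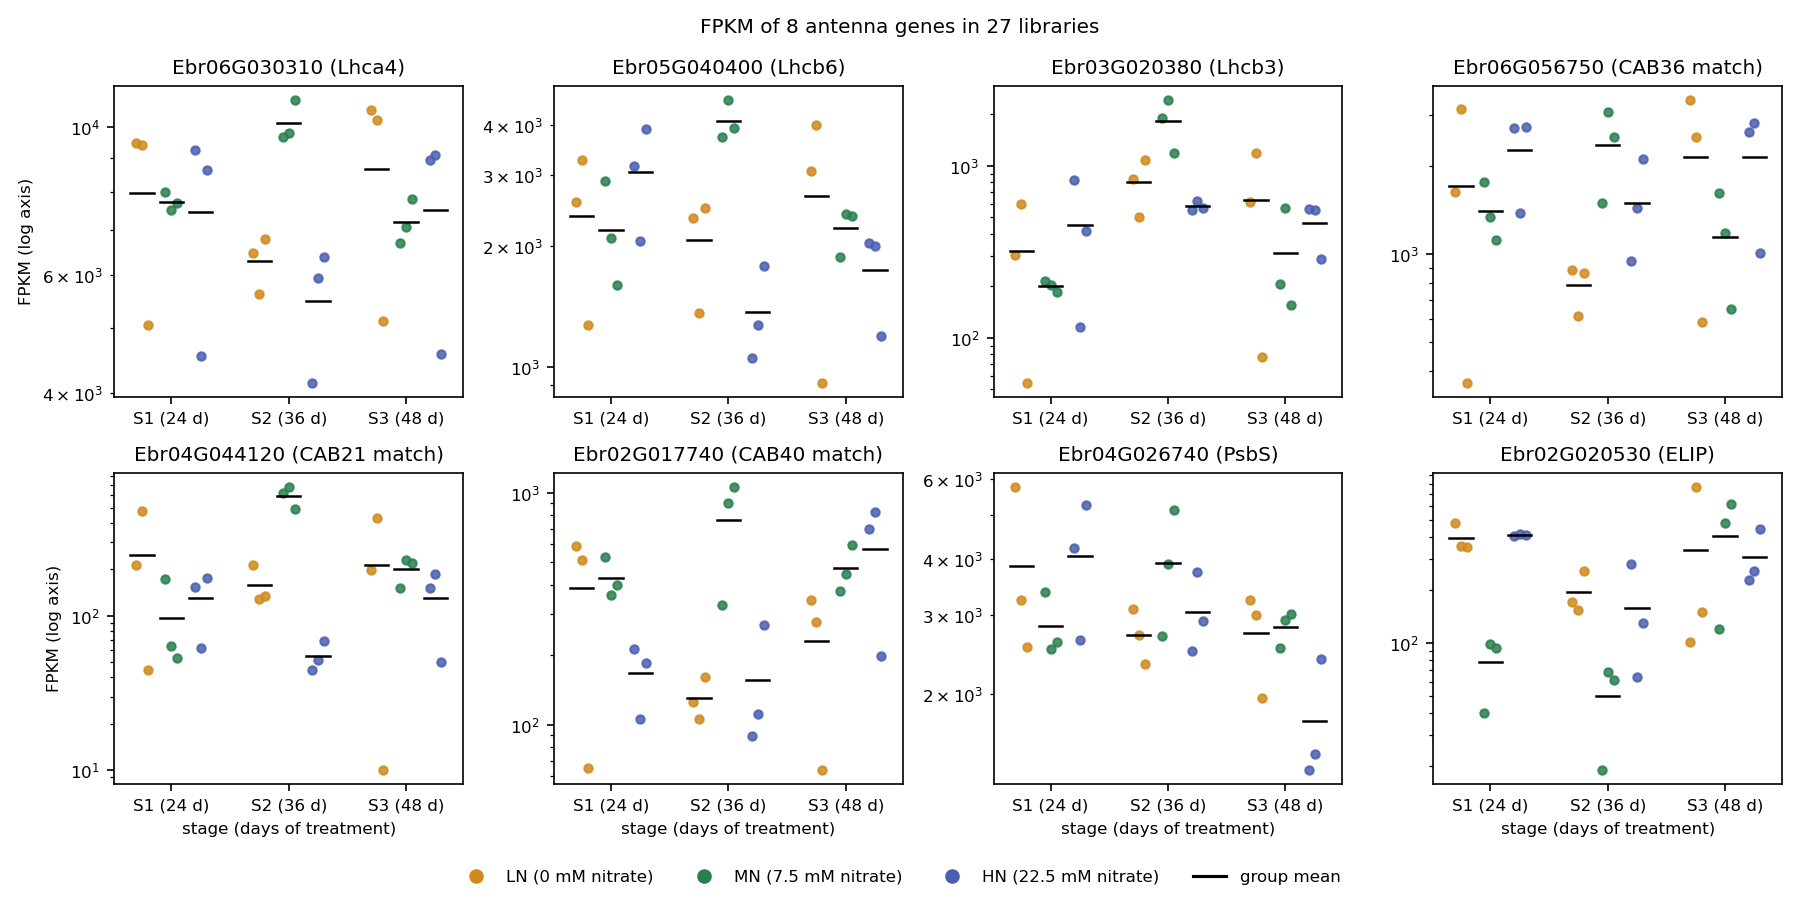
FPKM on a log axis of 8 antenna genes in every library by stage and nitrate level. Lhca4, Lhcb6, Lhcb3 and the CAB21 gene Ebr04G044120 have their highest group mean in MN S2, and the ELIP gene Ebr02G020530 has its lowest there (19.0 to 68.7 FPKM).

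At S1 the antenna medians lay near 0, and the ELIP genes stood higher in LN and HN than in MN leaves. LN against MN gave a median of 0.20, with 0 genes called by edgeR (0.0035% of all genes), 4 at unadjusted p under 0.05 (10.3%), all higher, and 1 called by DESeq2 (2.02%). Without replicate C of LN S1, the library low in antenna transcript, the median was 0.55, and without replicate B it was -0.17. HN against MN gave a median of 0.27, with 0 called by edgeR (0.192%), 6 at unadjusted p under 0.05 (13.9%) and 2 by DESeq2 (3.81%). Without replicate B of HN S1 the median was 0.53, and without replicate A it was -0.10. Ebr02G020530 had 477, 352 and 352 FPKM in LN S1, 39.8, 98.9 and 93.8 FPKM in MN S1, and 405, 417 and 409 FPKM in HN S1. Both LN and HN lay above all MN libraries, at 2.35 (adjusted p = 0.270) and 2.38 (adjusted p = 0.144) with edgeR. The second ELIP gene, Ebr02G021330, had 171, 99.8 and 131 FPKM in LN S1, 31.03, 47.5 and 45.7 FPKM in MN S1, and 144, 342 and 371 FPKM in HN S1, again with no overlap. Its edgeR estimates were 1.71 (adjusted p = 0.579) for LN and 2.76 (adjusted p = 0.243) for HN. Ebr02G017740 was the reverse in HN, with 213, 106 and 185 FPKM in HN S1 against 529, 362 and 398 FPKM in MN S1.

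At S3 the medians lay near 0 and the LN replicates were spread widely. LN against MN gave a median of 0.32, with 0 called by edgeR (0.0% of all genes), 3 at unadjusted p under 0.05 (9.48%) and 0 by DESeq2 (1.2%). Without replicate C of LN S3 the median was 0.68 and without replicate B it was -0.07. HN against MN gave -0.12, with 0 called by edgeR (0.276%), 3 at unadjusted p under 0.05 (18.8%) and 1 by DESeq2 (5.56%). With any 1 library left out the HN median lay between -0.22 and 0.02. PsbS had 1360, 1478 and 2392 FPKM in HN S3 against 2531, 2924 and 3019 FPKM in MN S3, without overlap.

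HN set directly against LN at the same stage gave medians of 0.02 at S1, -0.47 at S2 and -0.49 at S3. The S1 median ran between -0.38 and 0.42 with any 1 library omitted, the S2 median between -0.64 and -0.11, and that of S3 between -0.85 and 0.12. edgeR called 0 at each stage, where 0.112%, 0.0035% and 0.108% of all genes were called. Numbers at an unadjusted p under 0.05 were 5, 7 and 5 (12.1%, 11.3% and 16.4%), and DESeq2 called 1, 1 and 0 (2.9%, 1.6% and 3.8%). At S2 the most distinct gene was Ebr0G005020, at -3.02 (SE 0.53, edgeR adjusted p = 0.0724). It had 21.9, 30.7 and 39.8 FPKM in HN S2 against 275, 316 and 160 FPKM in LN S2.

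In LN leaves no stage pair gave a call by edgeR. The medians were 0.01 for S2 vs S1, 0.40 for S3 vs S2 and 0.29 for S3 vs S1, with 0.0%, 0.0035% and 0.00699% of all genes called. Antenna genes at an unadjusted p under 0.05 numbered 4, 4 and 5 (7.98%, 11.2% and 11.6%), and DESeq2 called 0, 0 and 1 (0.978%, 2.04% and 2.55%). The median for S3 vs S1 was 0.85 without replicate B of LN S1 and -0.15 without replicate C. With 1 library left out the S2 vs S1 median lay between -0.44 and 0.62, and the S3 vs S2 median between -0.24 and 0.76.

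In HN leaves the 3 stage pairs gave medians of -0.46 (S2 vs S1), 0.45 (S3 vs S2) and -0.10 (S3 vs S1). The first was -0.70 without replicate B of HN S1 and -0.26 without replicate A, and the second 0.27 without replicate A of HN S2 and 0.61 without replicate C of HN S3. The third was -0.38 without replicate B of HN S1 and turned to 0.23 without replicate C of HN S3. edgeR called 1, 0 and 0 antenna genes, where 4.66%, 0.577% and 1.5% of all genes were called. At an unadjusted p under 0.05 there were 10, 8 and 9 (24.0%, 17.2% and 20.9%), and DESeq2 called 6, 2 and 2 (10.7%, 5.28% and 7.47%). The gene called was Ebr0G005020, which fell by 1.76 on the log2 scale (SE 0.51, edgeR adjusted p = 0.0455), with 21.9, 30.7 and 39.8 FPKM in HN S2 against 64.3, 86.2 and 172 FPKM in HN S1. Its call held in 13 of 27 fits with 1 library left out, and the highest adjusted p was 0.220, without HN S1 replicate C. The call was also lost with the close replicate pairs summed, with no filter on low counts and in a fit of the compared groups only. PsbS gave -1.17 for S3 vs S1 in HN (SE 0.34, edgeR adjusted p = 0.0710). Ebr02G017740 was higher in HN S3, with 696, 824 and 197 FPKM, against 89.3, 111 and 268 FPKM in HN S2, and these groups overlapped.

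The difference of the treatment effect between stages was tested with interaction terms. The LN effect at S2 minus that at S1 had a median of -1.39, and S3 minus S2 a median of 1.26. Without replicate B of LN S1 the first was -0.62, and without replicate C it was -1.74, while the second ran between 0.90 and 1.77 (without replicate B or C of LN S3). For HN the same medians were -1.67 (-1.14 without replicate A of HN S1) and 1.38. edgeR called 0 antenna genes in any of the 4 interactions, where 0.0769%, 0.108%, 0.157% and 0.0699% of all genes were called. At an unadjusted p under 0.05, 8 antenna genes were lower for the first (5.27% of all genes lower) and none higher. For the other 3 there were 9, 19 and 15 in either direction (10.8%, 13.5% and 11.4%), and DESeq2 called 1, 1, 6 and 5 in the 4 (2.29%, 1.96%, 3.25% and 2.28%). All 4 contain the MN S2 libraries, so they are not independent. For Lhcb6 the HN effect at S2 minus that at S1 was -2.01 (SE 0.61), and for Ebr04G044120 it was -3.85 (SE 1.19). Neither was called, and the smallest edgeR adjusted p of any antenna gene in that interaction was 0.139.

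**Figure D5:**
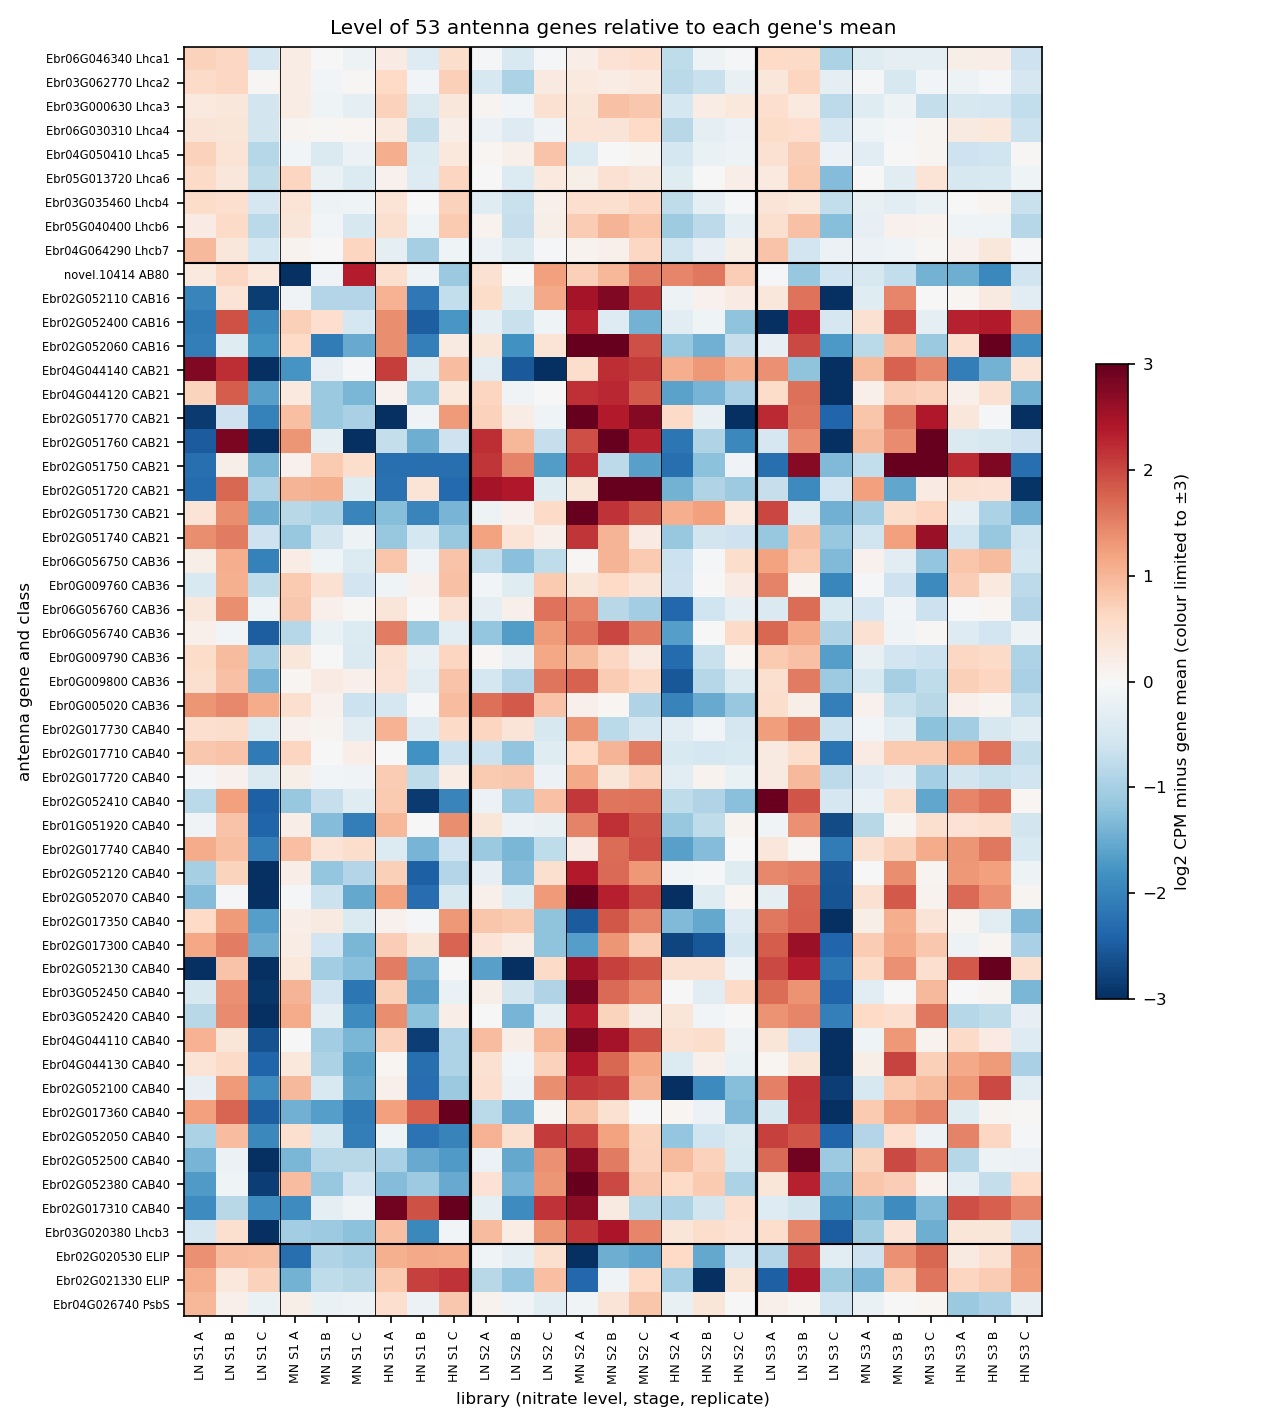
Log2 CPM of the 53 tested genes in the 27 libraries, each gene centred on its mean, with genes ordered by complex and libraries by stage and nitrate level. The MN S2 columns are high across most LHCII rows, and the LN S1 C, LN S3 C, HN S1 B and HN S3 C columns are low across many of them.

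Genes with a profile close to the antenna median were sought over all 27 libraries, by the root mean square difference in centred log2 CPM. Lhcb6 was the closest antenna gene at 0.34, and the median over members was 0.88 with 1.15 over the other 28540 tested genes. The antenna median was built from these same members, so their smaller distance was in part fixed in advance and is not a result. The 5 nearest genes outside were Ebr03G064670 (0.34), annotated as the geranylgeranyl diphosphate reductase that makes the phytol tail of chlorophyll, an added transcript on chromosome 6 (100579132 to 100580791) annotated as the 5 kDa photosystem II protein (0.40), Ebr05G025760 (0.41, the photosystem I subunit psaK), Ebr05G050410 (0.45, without a name) and Ebr04G001490 (0.45, a thylakoid lumenal 29 kDa protein). Ebr03G064670 had a mean of 343 FPKM in LN S2, 575 FPKM in MN S2 and 226 FPKM in HN S2. These likenesses are descriptions over 27 libraries and carry no test.

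Other gene lists were read at S2 beside the antenna. The 30 tested photosystem core and electron transport genes had a median of -0.53 in each comparison with MN. At an unadjusted p under 0.05, 5 of them were lower and 1 higher in LN (all genes 4.69% lower and 7.54% higher), and 8 lower and 1 higher in HN (all genes 6.39% and 8.63%). The 9 genes of antenna assembly and chlorophyll b formation had -0.33 (LN) and -0.53 (HN), and 12 chlorophyll breakdown genes had -0.20 in each. For 8 antenna regulation genes the medians were 0.12 and -0.34, for 5 transcription regulators of the antenna 0.17 and 0.08, and for 4 LHC-like proteins outside the antenna set -0.20 and -0.32. The 10 leaf mesophyll markers had medians of -0.32 and -0.56. Summed, they were 11311 to 15081 FPKM in LN S2, 14031 to 16120 FPKM in MN S2 and 7661 to 10323 FPKM in HN S2, and their part in the antenna differences was not tested. Clock genes (24 tested) had medians of -0.10 and -0.27, and 1 of them, REVEILLE 1 (Ebr03G038580), a morning-phased transcription factor in Arabidopsis, was called higher in LN by edgeR (2.87, SE 0.58, adjusted p = 0.0444), where 0.143% of all genes were called. It had 14.9, 13.7 and 42.1 FPKM in LN S2 against 2.98, 4.79 and 2.04 FPKM in MN S2. Whether this call held in the alternative fits or with 1 library left out is not given here. The part of sampling time in the antenna differences was not tested.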

How the data were processed

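Raw counts per gene, and the FPKM values beside them, were deposited by the authors for leaf RNA of 27 libraries. Per the labels, reads were processed with HISAT2 2.0.5, StringTie 1.3.3b and featureCounts 1.5.0-p3. Per the study, reads were aligned to a published E. pubescens genome. Its assembly version, the strand setting and treatment of multi-mapping reads were not given in the sources used here. Checks showed that the deposited FPKM could be rebuilt from the counts, the gene lengths and 1 scaling factor for each library. The counts were tested with edgeR 4.0.16 (R 4.3.3) quasi-likelihood F tests after TMM scaling and filterByExpr, in 1 fit of 27 libraries with 18 residual degrees of freedom. Calls needed a Benjamini-Hochberg adjusted p below 0.05 over all 28593 genes and at least a 2-fold difference (interactions: no fold limit). Standard errors (SE) were derived from the fold change and its F value. DESeq2 1.42.0, RLE scaling, no filter, the groups compared only, close replicate pairs summed, a replicate block and each library left out were alternatives. How plants were divided among replicates was not given in the sources used here, so p-values measure the spread between these samples. Members and gene lists were chosen with earlier results of these data known. The text names Ebr04G044120 and Ebr02G017740, the most expressed gene of each antenna class, in each comparison and direction the call of smallest p, the most expressed gene never called, the 5 nearest profiles and any called list gene at S2. Others named were chosen after their values were seen. The method was also run on simulated counts with known changes, and the outcome is not given here. Figures used matplotlib 3.10.9, and tables pandas 2.3.3 with Python 3.11.15. Sequences are not printed here.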

Additional observations from a re-analysis of the deposited data

How the results depend on the processing

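The median log2 fold changes of the antenna genes in the 18 group comparisons stayed within 0.712 of their values in all 594 alternative runs. The limit of 0.712 is the within-group SD of the antenna median profile, not a spread of fold changes. It was larger than the median itself in most comparisons, so a median could turn sign and stay within it. With 1 library left out the LN vs MN S1 median ran between -0.17 and 0.55. The HN vs LN S3 median ran between -0.85 and 0.12. The 4 interactions were not among these runs, and the LN S2 minus S1 median moved to -0.62 without LN S1 replicate B, against -1.39. The 9 summed levels had 9 alternative values, all within their own within-group SD. That limit is wide where replicates spread, at 25802 FPKM on a mean of 54832 FPKM in LN S3. Staying within it therefore shows little. The counts of called genes did move, and the cause was not tested. DESeq2 called 1 for LN vs MN S1, 3 for LN vs MN S2, 2 for HN vs MN S1, 12 for HN vs MN S2, 1 each for HN vs MN S3, HN vs LN S1, HN vs LN S2 and S3 vs S1 in LN, 14 for S2 vs S1 in MN, 6 for S3 vs S2 in MN, 2 for S3 vs S1 in MN, 6 for S2 vs S1 in HN, 2 each for S3 vs S2 and S3 vs S1 in HN, and 1, 1, 6 and 5 in the 4 interactions (LN S2 minus S1, LN S3 minus S2, HN S2 minus S1, HN S3 minus S2). Fits of the groups compared only called 1 for HN vs MN S2, 6 for S2 vs S1 in MN, 0 for S3 vs S2 in MN, 2 for S3 vs S2 in HN and 1 for the HN S2 minus S1 interaction. With no filter on low counts, S2 vs S1 in MN and in HN gave 0 each. With 7 replicate pairs summed that were closer to each other than any libraries of different groups, S2 vs S1 in MN, S3 vs S2 in MN and S2 vs S1 in HN gave 0 each.

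With 1 library left out, the calls ranged 0 to 1 for HN vs MN S1, HN vs MN S2, HN vs LN S2, S3 vs S2 in MN, S3 vs S1 in HN and the HN S3 minus S2 interaction, 0 to 7 for S2 vs S1 in MN and 0 to 3 for S2 vs S1 in HN. Replicate letters did not pair libraries (mean correlation of deviations 0.0238 for the same letter, -0.0117 for different letters), and the replicate block left the counts of calls at 3, 1 and 1 in MN S2 vs S1, MN S3 vs S2 and HN S2 vs S1, though Ebr02G052060 was no longer among them. Under the replicate block Ebr02G017730 turned to 0.006 for LN vs MN S2. With 1 library left out, its estimates ranged -0.97 to 0.35 (HN vs MN S2), -0.41 to 0.91 (LN vs MN S2) and -0.63 to 0.69 (S2 vs S1 in MN). For S2 vs S1 in MN the range was -0.0015 to 0.26 for Ebr04G050410, -0.18 to 0.22 for Ebr04G064290, -0.49 to 0.0434 for Ebr0G005020 and -0.50 to 2.31 for the AB80 gene. Precision is limited by 3 libraries a group with a common biological coefficient of variation of 0.673.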
